A study of Canis lupus familiaris with 15 samples.

Results

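Nodular hyperplasia of the spleen, a benign nodule of splenic tissue, was compared with normal spleen of dogs by small RNA sequencing. The comparison took all 5 spleens with nodular hyperplasia and all 5 normal spleens, 10 of the 15 libraries sequenced, chosen by their diagnosis alone. The other 5 libraries were hemangiosarcoma, a malignant tumor of blood vessel cells, and entered the shared fit. Both lesions were cut from splenic masses of client-owned dogs, frozen at surgery, with the diagnosis made on the piece of tissue beside the sample. Normal spleen came from an archive of tissue that was likewise frozen soon after splenectomy, and was judged normal by histology of adjacent tissue. Lesion and source of the tissue therefore cannot be told apart in any difference between the groups. No drug, allele or transgene was compared, and earlier treatment of the dogs is not stated. Ages were not used, and each spleen gave 1 library.

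MicroRNAs are short RNAs that guide a protein complex to messenger RNAs and lower their output. Many are copied together from 1 primary transcript, and many come as near-identical copies from different places in the genome. Several mark a lineage, such as mir-143 and mir-145 in smooth muscle, mir-1 and mir-133 in striated muscle, mir-150 in mature lymphocytes and mir-451 in red blood cell precursors. The spleen holds all of these but striated muscle: lymphocytes in its white pulp, blood cells in its red pulp, and smooth muscle in its capsule and trabeculae. In RNA of whole tissue, fewer cells of a type and less of a miRNA per cell cannot be told apart.

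A total of 250 miRNAs had at least 10 counts over the 15 libraries and were tested. Mature counts were 3768867 to 6073162 per library in nodular hyperplasia, against 4374133 to 7548062 in normal spleen, with 232 to 250 miRNAs detected in nodular hyperplasia, against 231 to 242 in normal spleen. Values are CPM, the counts per 1000000 of the library size after TMM scaling, a method that assumes most miRNAs do not change. In both groups the lineage miRNAs of spleen were present, with mir-451 at 20233 to 79397 CPM in nodular hyperplasia, against 39776 to 129530 CPM in normal spleen, and mir-150 at 2140.2 to 7840.1 CPM in nodular hyperplasia, against 1303 to 2709 CPM in normal spleen. Nodular hyperplasia replicate 3 stood apart in mir-205, 1 of the epithelial miRNAs: it held 75 counts, where the other 4 nodules had 0 and the normal spleens 0 to 2.

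Nodular hyperplasia carried more mir-34a, mir-146b, mir-31, the 3 members of the mir-29 family and the 3 members of the mir-183 cluster. It carried less mir-143 and mir-145 of smooth muscle, mir-10a, mir-10b, and mir-1 and the mir-133 group of striated muscle. Mir-499, also of striated muscle, rose. By edgeR, 31 of the 250 miRNAs differed from normal spleen (12.4%), 14 of them higher (5.6%) and 17 lower (6.8%). The median log2 fold change over all 250 was 0.23. Of the 31, the CPM ranges of the groups did not overlap for 23, which were 7 that rose and 16 that fell, beside 39 of all 250 miRNAs (15.6%), 16 higher (6.4%) and 23 lower (9.2%). The 8 whose ranges overlapped were mir-146b, mir-29b, mir-29c, mir-182, mir-590, mir-376b and mir-494, which rose, and mir-1836, which fell.

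**Figure D1:**
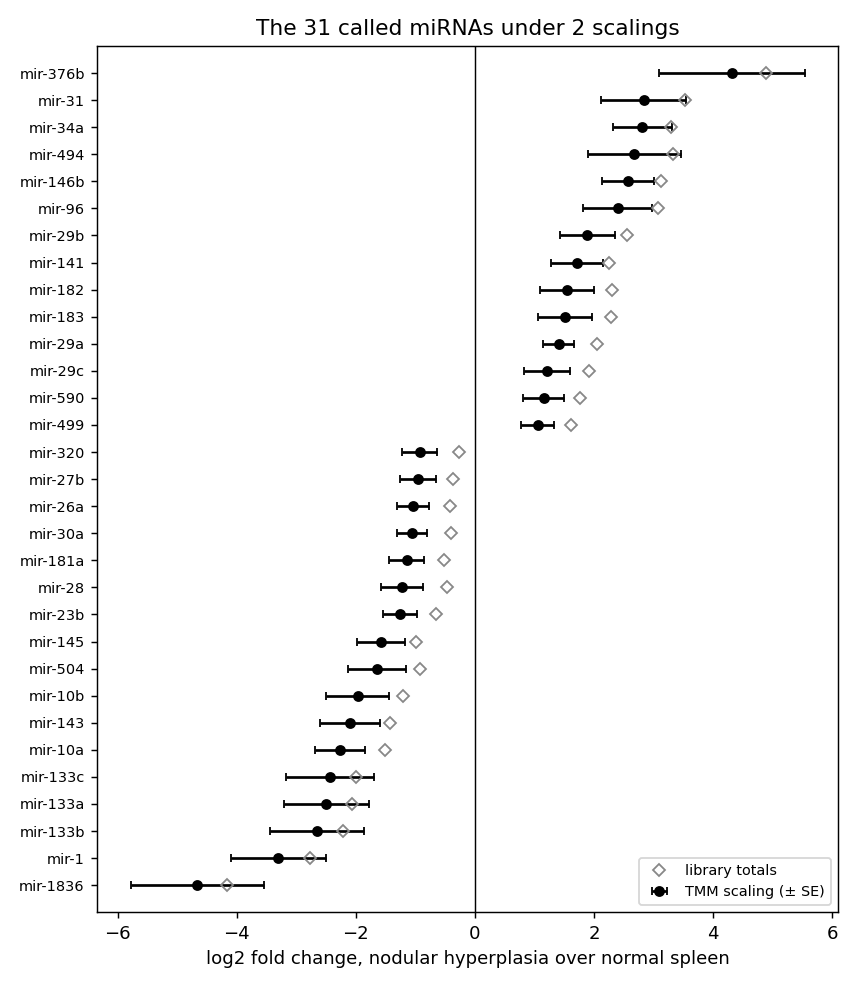
Log2 fold change of nodular hyperplasia over normal spleen for the 31 called miRNAs under TMM scaling (filled circles, bars are ± 1 SE) and with library totals in place of TMM (open diamonds). All 31 keep their side of 0, and every diamond lies to the right of its circle, which leaves mir-320 at -0.27 and mir-27b at -0.37 near 0.

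Scaling set the balance of these calls. The share of mature counts taken by mir-143 alone was 15.3% ± 4.87 in nodular hyperplasia and 41.2% ± 7.74 in normal spleen (SD, n = 5 each). With library totals the median of all 250 moved to 0.81, and 45 of the 250 miRNAs were called higher (18%) and 6 lower (2.4%). All 14 rises and 6 of the 17 falls remained called, those of mir-10a, mir-10b, mir-143, mir-1, mir-133a and mir-1836. The other 11 falls kept their sign and lost the call. Of the 31 calls, 14 held under each of 5 other scalings: mir-34a, mir-146b, mir-29a, mir-29b, mir-31, mir-96, mir-182, mir-494 and mir-376b, which rose, and mir-10a, mir-10b, mir-143, mir-1 and mir-1836, which fell. Mir-376b missed the threshold with DESeq2 (adjusted p = 0.0503).

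In the fit of 15 libraries the calls also depended on single libraries. Without normal spleen replicate 2, 27 of the 31 missed the threshold, with adjusted p = 0.0521 to 0.109, and 4 calls were left: mir-34a, mir-146b, mir-29a and mir-10a. These 4 held without each of the 15 libraries in turn. When the hemangiosarcoma libraries were taken out of the fit, 56 of 244 miRNAs tested were called (23.0%), 30 higher (12.3%) and 26 lower (10.7%), and all 31 calls were among them. In that fit of 10 libraries, 25 of the 31 held without each of the 10 in turn. The exceptions were mir-376b, mir-494, mir-28, mir-590, mir-29c and mir-320, with adjusted p of up to 0.0761, 0.0722, 0.0738, 0.103, 0.0592 and 0.0738. Losses of single calls given below are those of the fit of 15 unless another fit is named.

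Mir-34a, a miRNA that the tumor suppressor p53 induces and that restrains the cell cycle, gave one of the clearest differences. Nodular hyperplasia replicates 1 to 5 had 82.9, 138, 186, 217 and 75.1 CPM, against 10.2, 20.3, 23.8, 15.4 and 29.5 CPM in normal spleen replicates 1 to 5. The lowest nodule thus lay above the highest normal spleen. This was a log2 fold change of 2.81 (SE 0.49, adjusted p = 0.00282). Its relatives mir-34b and mir-34c, which lie beside each other at another locus, had positive fold changes that missed the threshold in the fit of 15 libraries, at 2.39 (SE 0.80, adjusted p = 0.0614) and 1.83 (SE 0.77, adjusted p = 0.114). Mir-34b, at no more than 7.83 CPM in any nodule, did not overlap between the groups and was called in the fit of 10 libraries (adjusted p = 0.0315), unlike mir-34c (adjusted p = 0.0868). With library totals mir-34b (adjusted p = 0.0163) and mir-34c (adjusted p = 0.0199) were both called higher.

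Mir-146b is induced by NF-kB and damps signaling by toll-like and interleukin-1 receptors. It stood at 1086, 986, 191, 1594 and 903 CPM in nodular hyperplasia, against 196, 139.5, 126, 162 and 175 CPM in normal spleen. Replicate 3 of nodular hyperplasia lay inside the normal range and the other 4 nodules were at 903 CPM or more. Its fold change was 2.57 on the log2 scale (SE 0.43, adjusted p = 0.00282). Counted within a library, mir-146b was 0.0444 to 0.890 of its close relative mir-146a in nodular hyperplasia, against 0.0348 to 0.0654 in normal spleen. Of the 6 miRNAs listed as NF-kB induced (mir-146a, mir-146b, mir-155, mir-21, mir-9 and mir-147), 1 was called in the fit of 15 libraries, mir-146b, beside 12.4% of all 250, and the median of the 6 was 0.37. In the fit of 10 libraries mir-21 was also called higher (adjusted p = 0.0186), where 12.3% of 244 were, and mir-9 lower (adjusted p = 0.0315), where 10.7% were. With library totals mir-146b, mir-21 and mir-155 were called higher, where 18% of all 250 were.

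All 3 members of the mir-29 family rose and were called, where 5.6% of all 250 were called higher. These miRNAs share a seed and repress collagens and other proteins of the extracellular matrix. The RefSeq annotation of the dog assembly UU_Cfam_GSD_1.0 places mir-29a beside a copy of mir-29b, and the other copy of mir-29b beside a copy of mir-29c, each within 10 kb. Mir-29a, the most abundant, had 5658, 10696, 9740.4, 7117 and 9975 CPM in nodular hyperplasia, against 3209, 2375, 3241, 3212 and 4230.1 CPM in normal spleen. The groups did not overlap, and the log2 fold change was 1.41 (SE 0.26, adjusted p = 0.00282).

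Mir-29b had 1454, 6790.2, 7913, 3561 and 3654 CPM in nodular hyperplasia, against 1029, 971, 1449, 1127 and 1727 CPM in normal spleen. Replicate 1 was the only nodule inside the normal range, and the log2 fold change was 1.89 (SE 0.46, adjusted p = 0.0172). Mir-29c had 406, 1241, 1226, 546 and 558 CPM in nodular hyperplasia, against 318, 319, 351, 313 and 419 CPM in normal spleen, and again replicate 1 alone fell inside the normal range. Its log2 fold change was 1.21 (SE 0.39, adjusted p = 0.0495). The call of mir-29b ended without normal spleen replicate 2 (adjusted p = 0.0525). That of mir-29c ended without any of 11 of the 15 libraries, all but nodular hyperplasia replicates 1 and 4 and hemangiosarcoma replicates 2 and 3 (adjusted p = 0.0519 to 0.111).

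The mir-183 cluster, in which mir-183, mir-96 and mir-182 lie within 10 kb of each other, rose as a whole. All 3 were called higher, where 5.6% of all 250 were. The cluster is best known from sensory organs and is also induced in activated lymphocytes. Mir-96 had 41.3, 73.0, 31.8, 24.8 and 30.6 CPM in nodular hyperplasia, against 5.94, 4.10, 7.15, 11.4 and 9.54 CPM in normal spleen, with no overlap. On the log2 scale the difference was 2.40 (SE 0.58, adjusted p = 0.0172). Mir-182, the most abundant of the 3, had 203, 259, 93.7, 202 and 195 CPM in nodular hyperplasia, against 106, 52.1, 31.9, 77.9 and 57.9 CPM in normal spleen.

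For mir-182, nodular hyperplasia replicate 3 lay below the highest normal spleen and the other 4 nodules above it. This gave a log2 fold change of 1.55 (SE 0.45, adjusted p = 0.0342). Mir-183 had 109.6, 129, 54.2, 68.3 and 88.1 CPM in nodular hyperplasia, against 51.5, 26.9, 13.9, 34.2 and 31.2 CPM in normal spleen, with no overlap. The log2 fold change was 1.51 (SE 0.46, adjusted p = 0.0375). The call of mir-96 ended without normal spleen replicate 2 (adjusted p = 0.0525). The other calls depended on more libraries: mir-182 ended without any of 8 of the 10, all but nodular hyperplasia replicate 3 and normal spleen replicate 1 (adjusted p = 0.0527 to 0.0876). Mir-183 ended without any of 7, all but nodular hyperplasia replicates 3 and 4 and normal spleen replicate 1 (adjusted p = 0.0709 to 0.0990).

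Mir-31, known as a regulator of cell invasion, had 46.1, 196, 60.3, 54.6 and 68.0 CPM in nodular hyperplasia, against 7.59, 10.5, 9.90, 11.2 and 20.4 CPM in normal spleen. The groups did not overlap, and replicate 2 of nodular hyperplasia was far above the other nodules. EdgeR gave a log2 fold change of 2.83 (SE 0.71, adjusted p = 0.0182). It missed the threshold without nodular hyperplasia replicate 2, normal spleen replicate 1 or normal spleen replicate 2 (adjusted p = 0.0515 to 0.0550).

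**Figure D2:**
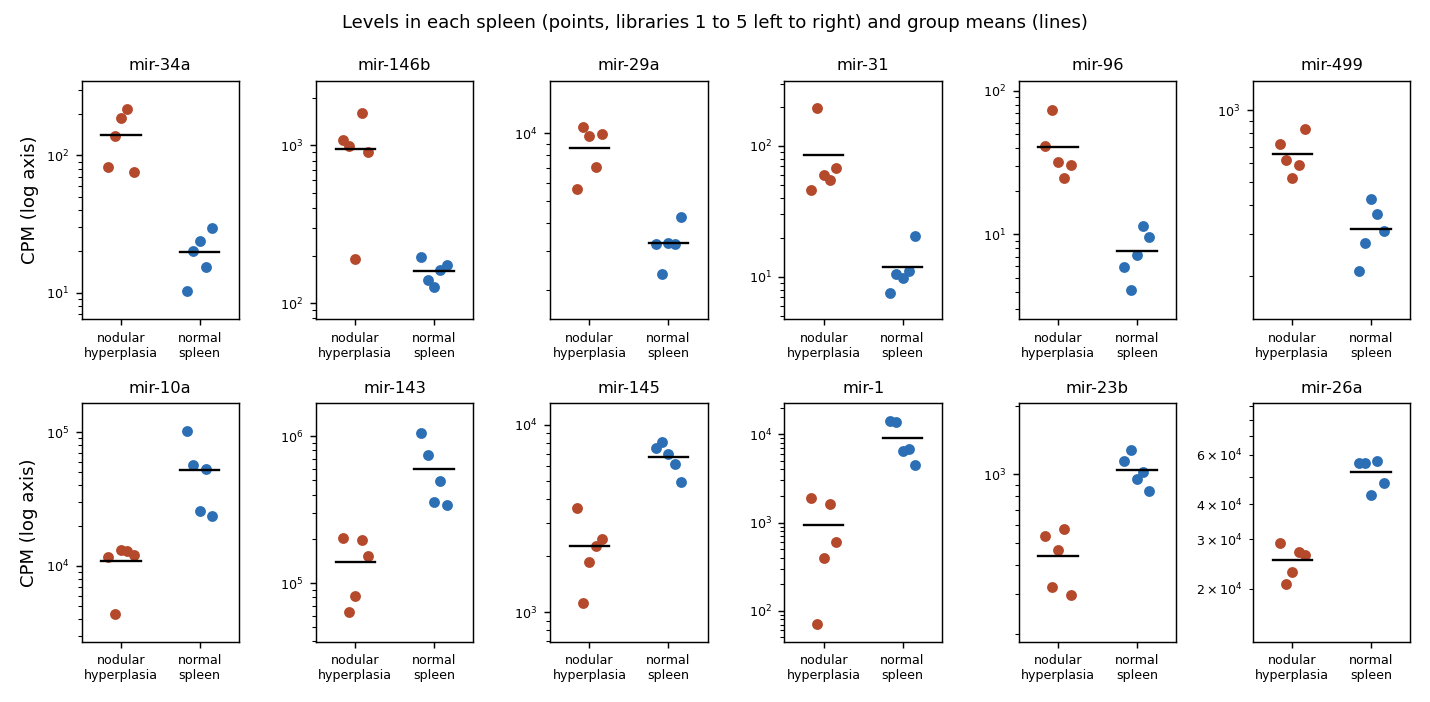
CPM on log axes for 6 miRNAs that rose (upper row) and 6 that fell (lower row), with nodular hyperplasia at the left and normal spleen at the right of each panel. Points are the 5 libraries of a group in order of replicate number and lines are group means; only mir-146b overlaps, through replicate 3 of nodular hyperplasia at 191 CPM.

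Of the epithelial mir-200 family with mir-203 and mir-205, 6 members were tested. Of these, mir-141 was called higher in the fit of 15 libraries, where 5.6% of all 250 were. The median of the 6 was 1.08 beside 0.23 for all 250, with 4 positive and 2 negative, down to -0.43. In the fit of 10 libraries 2 were called higher, mir-141 and mir-200c, where 12.3% of 244 were. With library totals 3 were, mir-141, mir-200c and mir-205, where 18% of all 250 were. Mir-141 had 8.90, 9.47, 10.9, 6.21 and 14.1 CPM in nodular hyperplasia, against 1.65, 1.59, 3.57, 2.90 and 5.21 CPM in normal spleen. The levels were low but did not overlap, and the log2 fold change was 1.72 (SE 0.44, adjusted p = 0.0182). Its genomic neighbor mir-200c, at 10.2 to 22.2 CPM in nodular hyperplasia, against 5.28 to 11.2 CPM in normal spleen, stood at 1.03 (SE 0.36) and missed the threshold in the fit of 15 libraries (adjusted p = 0.0699), but not in the fit of 10 (adjusted p = 0.0332). Mir-205 had the highest fitted fold change of all 250 miRNAs, 4.91, and was not called (adjusted p = 0.0947), but was with library totals (adjusted p = 0.0433). Its counts in the 10 libraries were 75 in nodular hyperplasia replicate 3, 2 in normal spleen replicate 3 and 0 elsewhere. The call of mir-141 ended without nodular hyperplasia replicate 5, normal spleen replicate 1 or normal spleen replicate 2 (adjusted p = 0.0518 to 0.0651).

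Mir-590, which lies in the gene of the translation factor EIF4H, had 546, 1678, 1607, 752 and 1008 CPM in nodular hyperplasia, against 282, 323, 688, 526 and 691 CPM in normal spleen. Replicate 1 of nodular hyperplasia lay inside the normal range. For mir-590 edgeR gave a log2 fold change of 1.16 (SE 0.35, adjusted p = 0.0375). The call ended without nodular hyperplasia replicates 2, 3 or 5 or normal spleen replicates 1, 2 or 4 (adjusted p = 0.0521 to 0.107).

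The imprinted Dlk1-Dio3 cluster is a long row of miRNAs transcribed from the maternal chromosome. Of its members 28 were tested, and all 28 had a positive log2 fold change, with a median of 1.53 beside 0.23 for all 250. Called higher were 2 of the 28, mir-376b and mir-494, where 5.6% of all 250 were. With library totals 9 of the 28 were called higher, where 18% of all 250 were, and the median was 2.21 beside 0.81. Mir-376b had 3, 14, 1, 0 and 26 raw counts in nodular hyperplasia, against 0, 0, 0, 0 and 1 in normal spleen. After scaling, the ratio of the summed counts was 37.0 (exact 95% interval 6.30 to 1493, counting error only), and edgeR gave an adjusted p = 0.0334. Mir-494 had 24, 31, 4, 4 and 75 counts in nodular hyperplasia and 2, 3, 8, 0 and 3 in normal spleen, with a log2 fold change of 2.68 (SE 0.78, adjusted p = 0.0342).

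The nodules did not share this pattern. In replicate 5 of nodular hyperplasia 28 of the 28 members lay above the highest normal spleen, in replicate 1 it was 23 and in replicate 2 it was 22, whereas in replicate 4 it was 1 and in replicate 3 it was 0. The summed level of the 28 was 810.0, 773, 33.0, 202 and 2297 CPM in nodular hyperplasia replicates 1 to 5, against 367, 518, 597, 172 and 210 CPM in normal spleen. Replicate 3 was thus below every normal spleen, and the normal range lay inside that of the nodules. The call of mir-376b ended without nodular hyperplasia replicates 2 or 5 or normal spleen replicates 1 to 4 (adjusted p = 0.0612 to 0.0844). That of mir-494 ended without nodular hyperplasia replicates 1, 2 or 5 or normal spleen replicates 1, 2, 4 or 5 (adjusted p = 0.0501 to 0.0938).

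**Figure D3:**
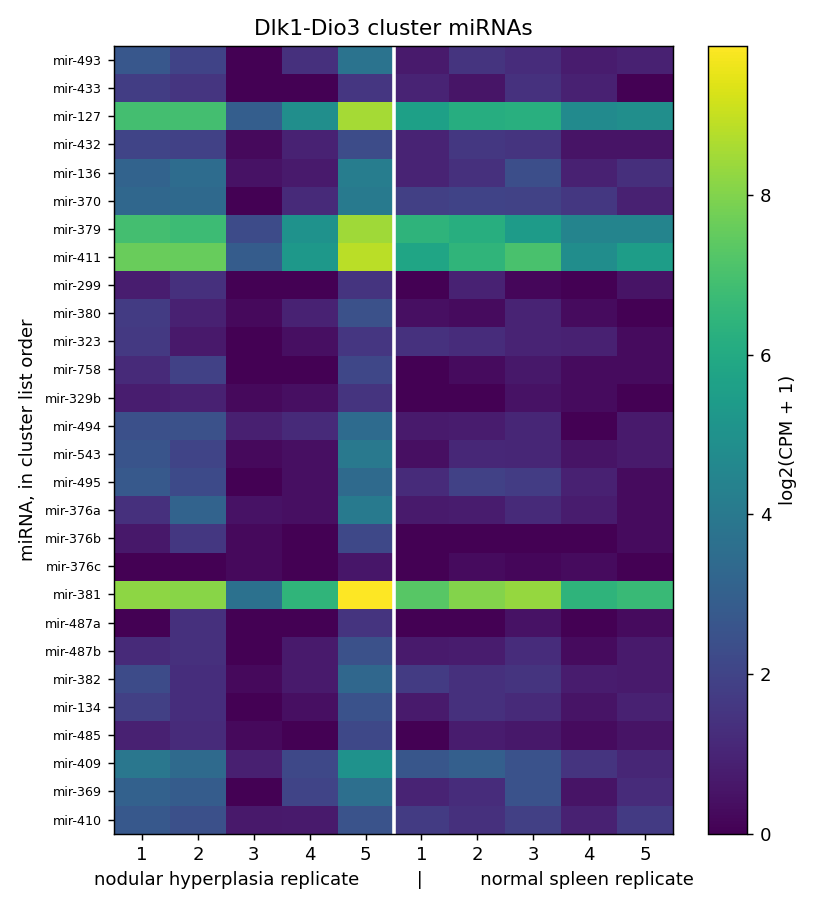
Level of the 28 tested miRNAs of the Dlk1-Dio3 cluster as log2(CPM + 1), with 1 row for a miRNA and 1 column for a library, nodular hyperplasia at the left and normal spleen at the right of the white line. Nodular hyperplasia replicates 1, 2 and 5 are bright and replicates 3 and 4 dark, with sums of 810.0, 773 and 2297 CPM against 33.0 and 202 CPM.

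Mir-143 and mir-145, neighbors in 1 transcript and markers of smooth muscle, both fell and were called, where 6.8% of all 250 were called lower. Mir-143 was first in every normal spleen and had 201947, 63717, 81926, 196317 and 151626 CPM in nodular hyperplasia, against 1042180, 742802, 357007, 496015 and 339304 CPM in normal spleen. The highest nodule was below the lowest normal spleen, and the log2 fold change was -2.10 (SE 0.50, adjusted p = 0.0172). As a share of mature counts it differed by -25.9 percentage points (exact permutation test, two-sided, p = 0.0079, the smallest p that 5 against 5 can give). Mir-145 had 3608, 1114, 1853, 2254 and 2471 CPM in nodular hyperplasia, against 7459, 8101, 6994, 6197 and 4974 CPM in normal spleen, with no overlap.

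The log2 fold change of mir-145 was -1.58 (SE 0.40, adjusted p = 0.0182), and with library totals it was -0.98 and not called (adjusted p = 0.0929). Its call also ended without nodular hyperplasia replicate 2 or normal spleen replicate 2 (adjusted p = 0.0525 for both), and that of mir-143 without normal spleen replicate 2 (adjusted p = 0.0521). Of the fibroblast miRNAs mir-199, mir-214 and mir-140, none was called by edgeR with 15 libraries, with 10 or with library totals. Their values were 0.26, 0.26 and -0.75, with a median of 0.26 beside 0.23 for all 250. Mir-199, at 1310 to 7705 CPM in nodular hyperplasia, against 3527 to 5109 CPM in normal spleen, had its lowest value in nodular hyperplasia replicate 3.

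Of 7 miRNAs of striated muscle tested, 4 were called lower and 1 higher, where 6.8% of all 250 were called lower and 5.6% higher. The median log2 fold change was -2.43 beside 0.23 for all 250, with 5 of the 7 negative and 2 positive. With library totals 1 was called higher and 2 lower, where 18% of all 250 were higher and 2.4% lower. Mir-1 had 1924, 71.5, 399, 1641 and 603 CPM in nodular hyperplasia, against 13993, 13943, 6520.2, 6831 and 4496 CPM in normal spleen. There was no overlap, replicate 2 of nodular hyperplasia was lowest, and the log2 fold change was -3.30 (SE 0.80, adjusted p = 0.0172). Mir-133a, which lies beside a copy of mir-1, had 77.9, 5.39, 28.8, 41.0 and 23.0 CPM in nodular hyperplasia, against 163, 228, 275, 136 and 189.8 CPM in normal spleen, again with no overlap and with replicate 2 lowest.

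Its log2 fold change was -2.49 (SE 0.72, adjusted p = 0.0342). Mir-133c, beside the other copy of mir-1, had 33.5, 2.18, 11.9, 19.6 and 10.1 CPM in nodular hyperplasia, against 69.6, 98.1, 112, 62.1 and 74.8 CPM in normal spleen, and a log2 fold change of -2.43 (SE 0.73, adjusted p = 0.0375). Reads unique to 1 hairpin made up 63.5% of mature reads for mir-133a and 12.6% for mir-133c, so these miRNAs are not independent measurements. Mir-133b had 6.94, 0.291, 1.41, 1.55 and 1.57 CPM in nodular hyperplasia, against 9.57, 17.1, 23.4, 10.7 and 13.9 CPM in normal spleen, with unique reads at 59.6%. Mir-133b had a log2 fold change of -2.66 (SE 0.79, adjusted p = 0.0369).

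The muscle miRNA called higher was mir-499, which lies in the myosin gene MYH7B. It had 722, 615, 518, 589 and 831 CPM in nodular hyperplasia, against 209, 275, 421, 365 and 309.5 CPM in normal spleen. The groups did not overlap, and the log2 fold change was 1.05 (SE 0.28, adjusted p = 0.0203). Within a library the count of mir-499 over that of mir-1 was 0.359 to 8.60 in nodular hyperplasia, against 0.0150 to 0.0688 in normal spleen, a ratio that no scaling can change. These ratios were formed after the values were seen and are given without a test.

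In the fit of 15 libraries, muscle calls ended when single libraries were left out. In the fit of 10, mir-1, mir-499, mir-133a, mir-133b and mir-133c held without each library in turn (adjusted p of at most 0.0339). The losses that follow are those of the fit of 15. Mir-1 lost its call without normal spleen replicate 2 (adjusted p = 0.0521), and mir-499 without nodular hyperplasia replicate 5, normal spleen replicate 1 or normal spleen replicate 2 (adjusted p = 0.0545 to 0.0653). Mir-133a lost it without nodular hyperplasia replicates 2, 4 or 5 or normal spleen replicates 1, 2 or 3 (adjusted p = 0.0539 to 0.0809). For mir-133b it was any of 8 libraries, all but nodular hyperplasia replicates 1 and 3 (adjusted p = 0.0528 to 0.0844), and for mir-133c any of 9, all but nodular hyperplasia replicate 1 (adjusted p = 0.0503 to 0.0912). With library totals mir-133b (adjusted p = 0.0531) and mir-133c (adjusted p = 0.0535) were not called.

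Mir-10a and mir-10b, which lie in HOX gene clusters and are abundant in endothelial cells, both fell. Of the 4 HOX cluster miRNAs tested, these 2 were called lower, where 6.8% of all 250 were, and the other 2 were positive. Mir-196a stood at 2.72 and was not called in the fit of 15 libraries (adjusted p = 0.117). In the fit of 10 it was called higher (adjusted p = 0.0462), where 12.3% of 244 were. With library totals 1 of the 4 was called higher, where 18% of all 250 were, and 2 lower, where 2.4% were. Mir-10a, in HOXB3 by the annotation, had 11607, 4329, 13235, 12985 and 12125 CPM in nodular hyperplasia, against 102331, 56278, 25814, 53154 and 23620.2 CPM in normal spleen. Replicate 2 of nodular hyperplasia was lowest, the groups did not overlap, and the log2 fold change was -2.27 (SE 0.41, adjusted p = 0.00282). Mir-10b had 5195, 3337, 5615, 8119 and 8262 CPM in nodular hyperplasia, against 47599, 23688, 11018, 24236 and 12938 CPM in normal spleen, with no overlap.

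The log2 fold change of mir-10b was -1.97 (SE 0.53, adjusted p = 0.0254), and the call ended without nodular hyperplasia replicates 1 or 2 or normal spleen replicates 1 or 2 (adjusted p = 0.0501 to 0.0803). Within a library mir-10a was 1.297 to 2.36 times mir-10b in nodular hyperplasia, against 1.83 to 2.38 times in normal spleen, and these ranges overlapped. Of 9 miRNAs listed for endothelial cells, these were the 2 called, beside 12.4% of all 250, and the median was -0.33. The count for this list depended on the fit: 3 were called higher and 3 lower in the fit of 10 libraries, where 12.3% of 244 were higher and 10.7% lower. With library totals 3 were higher and 2 lower, where 18% of all 250 were higher and 2.4% lower. Those called higher in both were mir-221, mir-222 and mir-27a. Mir-126, the defining endothelial miRNA, had 1101, 824, 2536, 1289 and 937 CPM in nodular hyperplasia, against 2521, 2161, 2526, 2734 and 2510 CPM in normal spleen. Replicate 3 of nodular hyperplasia lay inside the normal range and the other 4 nodules below it, and mir-126 was not called in the fit of 15 libraries, at -0.90 (SE 0.39, adjusted p = 0.121). It was called lower in the fit of 10 (-0.91, adjusted p = 0.0358) and stood at -0.28 with library totals (adjusted p = 0.665).

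Mir-23b and mir-27b, neighbors of a copy of mir-24, fell, whereas their near-copies mir-23a and mir-27a, from another locus with the other copy of mir-24, were not called. Mir-23b had 537, 319.9, 468, 576 and 296 CPM in nodular hyperplasia, against 1143, 1278, 953, 1029 and 848 CPM in normal spleen, with no overlap. Its log2 fold change was -1.26 (SE 0.29, adjusted p = 0.0172). Mir-27b had 8942, 3791, 6663, 8257 and 7789.9 CPM in nodular hyperplasia, against 16363, 14844, 13716, 12047 and 11864 CPM in normal spleen, with no overlap and a log2 fold change of -0.96 (SE 0.30, adjusted p = 0.0436).

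Mir-27a, with 5914, 3417, 4340.5, 5457 and 4582 CPM in nodular hyperplasia and 2483, 2384, 3184, 2897 and 2995 CPM in normal spleen, also had ranges that did not overlap, in the other direction. Its log2 fold change of 0.77 (SE 0.27) missed the threshold in the fit of 15 libraries (adjusted p = 0.0699) and passed it in the fit of 10 (adjusted p = 0.0105). Mir-23a stood at -0.39 (SE 0.26, adjusted p = 0.339), and at 0.23 with library totals. The ratio of mir-27a to mir-27b in a library was 0.661, 0.901, 0.651, 0.661 and 0.588 in nodular hyperplasia, against 0.152, 0.161, 0.232, 0.240 and 0.252 in normal spleen. That of mir-23a to mir-23b was 2.57, 4.46, 4.18, 3.38 and 2.85 in nodular hyperplasia, against 1.80, 1.74, 1.78, 1.94 and 2.27 in normal spleen.

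Neither ratio overlapped between the groups, and neither depends on the scaling of the libraries. Both were chosen after the values were seen and carry no test. Unique reads were 79.8% of mature reads for mir-23b and 97.2% for mir-27b, so part of the mir-23b reads also fit its copy. Counted from reads that match the annotated mature sequence exactly, mir-23b stood at -0.08 (adjusted p = 0.863). In the fit of 15 libraries the call of mir-23b ended without normal spleen replicate 2 (adjusted p = 0.0521). That of mir-27b ended there without any of the 10 libraries (adjusted p = 0.0501 to 0.104) or without hemangiosarcoma replicate 5. In the fit of 10 both held without each library in turn. With library totals neither was called, at -0.65 (adjusted p = 0.183) for mir-23b and -0.37 (adjusted p = 0.433) for mir-27b.

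**Figure D4:**
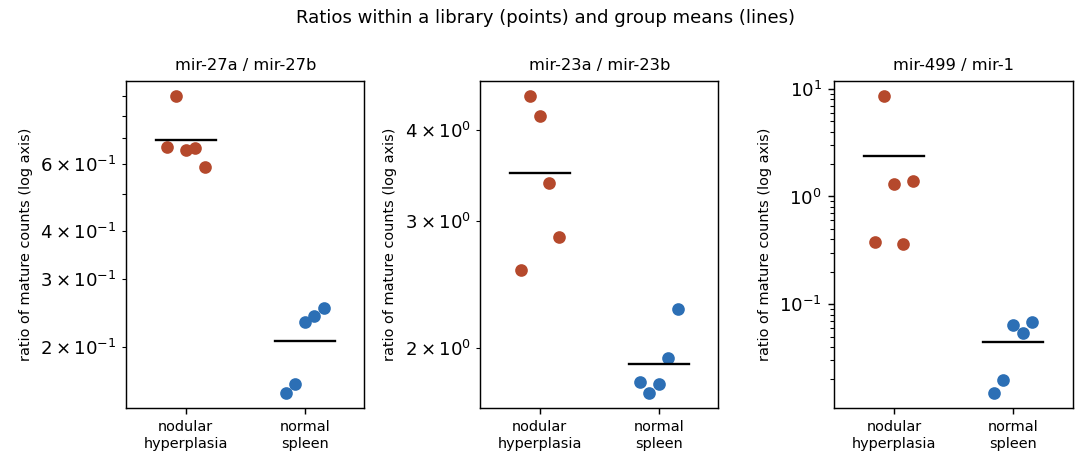
Ratios of mature counts of 2 miRNAs within the same library, on log axes, with nodular hyperplasia at the left and normal spleen at the right of each panel; points are libraries and lines are means. The ranges do not overlap in any panel: 0.588 to 0.901 against 0.152 to 0.252 for mir-27a over mir-27b, 2.57 to 4.46 against 1.74 to 2.27 for mir-23a over mir-23b, and 0.359 to 8.60 against 0.0150 to 0.0688 for mir-499 over mir-1.

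Of the lymphocyte miRNAs, 7 were tested, 2 were called lower and none higher, where 6.8% of all 250 were lower and 5.6% higher. The median was 0.25 beside 0.23 for all 250. The members that fell were mir-28, expressed in B cells of germinal centers, and mir-181a, which tunes receptor signaling in developing lymphocytes. Mir-28 had 1221, 874, 1022, 1492 and 1638 CPM in nodular hyperplasia, against 5867, 2718, 1806, 2439 and 1793 CPM in normal spleen, with no overlap and with normal spleen replicate 1 far above the rest. The log2 fold change was -1.23 (SE 0.36, adjusted p = 0.0342). Mir-181a had 3138, 4614 and 6396 CPM as lowest, median and highest in nodular hyperplasia, against 8847, 10230.1 and 13757 CPM in normal spleen. Its log2 fold change was -1.15 (SE 0.29, adjusted p = 0.0182).

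The other 5 miRNAs of this list were not called in the fit of 15 libraries, and their fold changes had both signs. Mir-150 had 4871, 7840.1, 2140.2, 3226 and 4976 CPM in nodular hyperplasia, against 2709, 1538, 1303, 2090.1 and 2226 CPM in normal spleen (log2 fold change 1.22, SE 0.41, adjusted p = 0.0614). Mir-142, present in all blood cells, did not overlap, at 9500.1 to 20002 CPM in nodular hyperplasia, against 5119.8 to 9209.5 CPM in normal spleen (log2 fold change 0.99, SE 0.39, adjusted p = 0.0959). Mir-155, of activated lymphocytes, stood at 1.00 (SE 0.35, adjusted p = 0.0701). In the fit of 10 libraries mir-150 (adjusted p = 0.0263) and mir-142 (adjusted p = 0.0186) passed the threshold and mir-155 did not (adjusted p = 0.0675). Mir-342 stood at 0.25 (adjusted p = 0.598) and mir-181b at -0.74 (adjusted p = 0.0719), and mir-181b was called lower in the fit of 10 (adjusted p = 0.0358). The list thus had 2 higher and 3 lower calls in the fit of 10, where 12.3% of 244 were higher and 10.7% lower. With library totals it had 3 higher and 0 lower, where 18% of all 250 were higher and 2.4% lower.

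Both falls in this list depended on the scaling and, in the fit of 15 libraries, on single libraries. In the fit of 10, mir-181a held without each library in turn and mir-28 did not. With library totals mir-28 stood at -0.47 (adjusted p = 0.290) and mir-181a at -0.52 (adjusted p = 0.312). Mir-28 lost its call without nodular hyperplasia replicates 1 or 2 or normal spleen replicates 1, 2 or 4 (adjusted p = 0.0507 to 0.129), and mir-181a without nodular hyperplasia replicate 2 or normal spleen replicates 1 or 2 (adjusted p = 0.0515 to 0.0525). The summed CPM of the 7 miRNAs was 20899.6 to 38407 in nodular hyperplasia, against 19995 to 29356 in normal spleen. None of the 7 was at 0, and the part of lymphocyte content in these differences was not tested.

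Mir-30a and mir-26a were the most abundant of the remaining miRNAs that fell. Mir-26a, which is carried in the genes of the phosphatases CTDSPL and CTDSP2, had 29175, 20734, 22959, 27118 and 26342 CPM in nodular hyperplasia, against 56240.1, 56151, 43037, 57250.4 and 47642 CPM in normal spleen. The groups were far apart relative to their spread, and the log2 fold change was -1.04 (SE 0.27, adjusted p = 0.0182). Mir-30a had 8348, 12085 and 14528 CPM as lowest, median and highest in nodular hyperplasia, against 17116, 24905 and 31395 CPM in normal spleen, with a log2 fold change of -1.06 (SE 0.25, adjusted p = 0.0172).

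With library totals these stood at -0.41 for mir-26a (adjusted p = 0.354) and -0.41 for mir-30a (adjusted p = 0.278). Mir-30a lost its call without normal spleen replicate 2 (adjusted p = 0.0525), and mir-26a without that library or nodular hyperplasia replicate 2 (adjusted p = 0.0525 and 0.0533). Mir-320 had 462 to 888 CPM in nodular hyperplasia, against 922 to 1646 CPM in normal spleen, with no overlap and a log2 fold change of -0.92 (SE 0.30, adjusted p = 0.0495). Its call ended without any of the 10 libraries or hemangiosarcoma replicates 1 or 5 (adjusted p = 0.0501 to 0.133), and with library totals it stood at -0.27 (adjusted p = 0.600).

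Mir-504, in the growth factor gene FGF13, had 6.05, 7.28, 7.66, 1.86 and 4.45 CPM in nodular hyperplasia, against 16.8, 21.6, 16.2, 12.7 and 18.9 CPM in normal spleen. The low levels did not overlap, and the log2 fold change was -1.65 (SE 0.49, adjusted p = 0.0369). The call ended without any of 9 of the 10 libraries, all but nodular hyperplasia replicate 3 (adjusted p = 0.0507 to 0.0876), and with library totals it stood at -0.93 (adjusted p = 0.288).

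Mir-1836, in the chaperonin gene TCP1, had the largest fitted fall and was a matter of 4 libraries. It had 8, 9, 2, 6 and 6 raw counts in nodular hyperplasia, against 3, 207, 157, 174 and 174 in normal spleen. Replicate 1 of normal spleen thus lay with the nodules. EdgeR fitted a log2 fold change of -4.66 (SE 1.11, adjusted p = 0.0172), and the call ended without normal spleen replicate 2 (adjusted p = 0.0521). Reads that matched the annotated mature sequence exactly made up 0% to 0.575% of them in normal spleen, and from exact reads alone the value was 1.62 (adjusted p = 0.425).

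**Figure D5:**
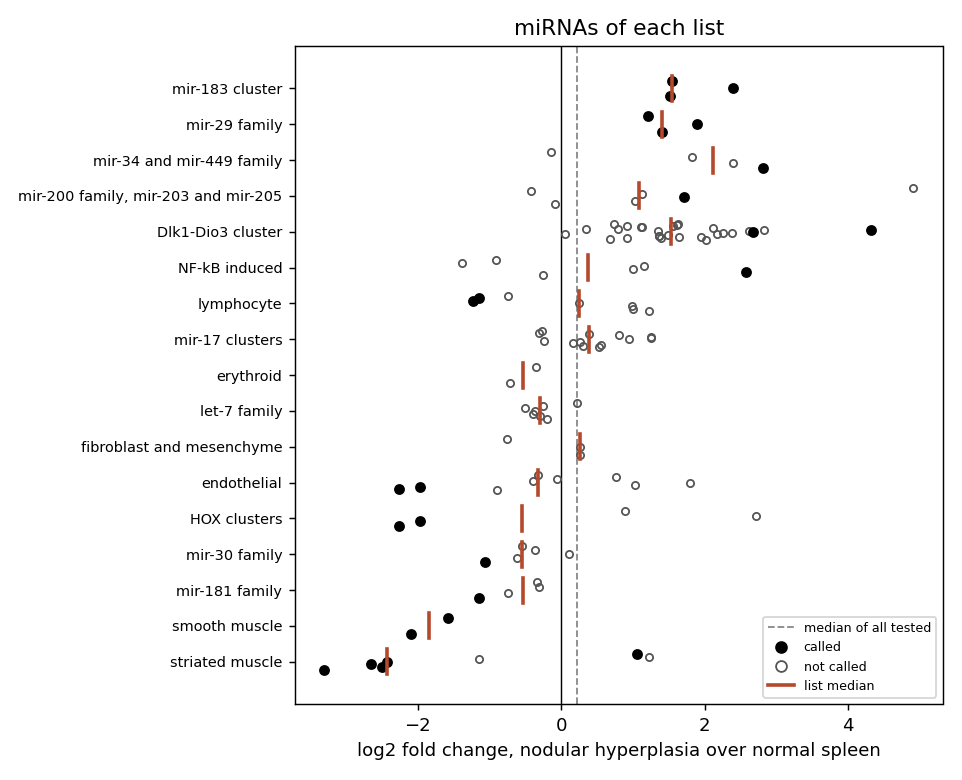
Log2 fold change of nodular hyperplasia over normal spleen for the tested miRNAs of 17 lists, with filled points for called miRNAs, open points for the rest, a red bar at each list's median and a dashed line at the median of all 250 miRNAs, 0.23. The mir-183 cluster and the mir-29 family have all 3 members called to the right, where 5.6% of all 250 were. Smooth muscle has both called to the left, where 6.8% of all 250 were. The mir-17 clusters, the let-7 family and the erythroid list hold no called miRNA.

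Among the most abundant miRNAs, mir-21 led in every nodule. It is induced in inflammation and in many tumors, and had 206570, 132343, 193816, 410131 and 173533 CPM in nodular hyperplasia, against 99124, 118009, 74345, 105441 and 104745 CPM in normal spleen. The groups did not overlap, but the log2 fold change of 1.15 (SE 0.41) missed the threshold (adjusted p = 0.0699) and passed it in the fit of 10 libraries (adjusted p = 0.0186) and with library totals (adjusted p = 0.00249). Mir-21 was 1.02 to 2.37 times mir-143 in nodular hyperplasia and 0.0951 to 0.309 times in normal spleen. Mir-148a, at 67557 to 248184 CPM in nodular hyperplasia, against 60746 to 229128 CPM in normal spleen, had a log2 fold change of 0.08 (SE 0.58, adjusted p = 0.924), and mir-451 one of -0.71 (SE 0.43, adjusted p = 0.277).

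The counts that follow stand beside 12.4% called of all 250 miRNAs, a share at which short lists often hold no call. In the mir-17 clusters, which drive proliferation, 0 of 13 were called by edgeR, with a median of 0.39 and a range of -0.31 to 1.26. One member, mir-20b, was called higher in the fit of 10 libraries (1.25, adjusted p = 0.0358). Of the let-7 family 0 of 7 were called, with a median of -0.30, and of the erythroid list 0 of 2, with a median of -0.53. The pancreas, liver and gut lists, tissues that lie near the spleen, had 0 called of 4, 2 and 3 tested. The candidate reference miRNAs mir-103, mir-107 and mir-191 were not called in the fit of 15 libraries, with all 3 positive and a median of 0.37. With library totals 1 of the 3 was called higher, where 18% of all 250 were, and the median was 0.97 beside 0.81.

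Reads elsewhere on the same hairpins gave a second measurement from the same libraries. They made up 7.78% ± 1.99 of hairpin reads in nodular hyperplasia and 6.72% ± 1.62 in normal spleen (SD, n = 5 each), a difference of 1.06 points that was within the spread (exact permutation test, two-sided, p = 0.389). Reads that matched the annotated mature sequence exactly made up 32.4% ± 1.44 of mature reads in nodular hyperplasia and 32.7% ± 2.96 in normal spleen, and did not differ beyond the spread either (exact permutation test, two-sided, p = 0.897).

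When the reads outside the mature sequence were tested as counts of their own, 15 of 237 miRNAs were called (6.33%), 7 higher (2.95%) and 8 lower (3.38%). Among the 31 miRNAs called from mature reads, 30 could be tested this way and 29 had the same sign, 9 of them called: mir-34a, mir-29a, mir-29b, mir-31 and mir-96 rose and mir-10a, mir-143, mir-30a and mir-1 fell. Mir-34a stood at 3.49 (adjusted p = 0.000546), mir-10a at -2.25 (adjusted p = 0.00151) and mir-29a at 1.24 (adjusted p = 0.0213). Mir-146b was weaker than from mature reads, at 1.22 against 2.57, and was not called (adjusted p = 0.0512). Mir-320 had the opposite sign, at 1.44, and was not called (adjusted p = 0.236). Both measurements come from the same tissue, RNA and library, so they do not replicate the difference between dogs.

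Set beside the tumors, 9 of the 31 miRNAs also differed between nodular hyperplasia and hemangiosarcoma, where 18.4% of the 250 were called, and all 9 in the same direction as against normal spleen. They were mir-146b, mir-29a, mir-141, mir-182, mir-183 and mir-376b, higher in nodular hyperplasia, and mir-10b, mir-27b and mir-504, lower. Both comparisons use the same nodular hyperplasia libraries. Mir-504 was at 1.86 to 7.66 CPM in nodular hyperplasia, and its mean was 5.46 CPM there, 48.0 CPM in hemangiosarcoma and 17.3 CPM in normal spleen. Between hemangiosarcoma and normal spleen, 7 of the 31 were called, where 22.4% of the 250 were, 6 of them with the sign seen in nodular hyperplasia and mir-504 with the opposite sign. That comparison shares the normal libraries. Mir-34a was not called between the lesions, at 0.56 for nodular hyperplasia over hemangiosarcoma (adjusted p = 0.406), with means of 139.9 CPM in nodular hyperplasia, 95.0 CPM in hemangiosarcoma and 19.8 CPM in normal spleen.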

How the data were processed

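The authors sequenced small RNA of 15 canine spleens, checked reads with FastQC, and trimmed and counted them in CLCbio against canine miRBase hairpins. The submitters' notes name the build canFam3, and no tool version was found for these steps. For every hairpin the deposited tables hold raw read counts, split into the mature sequence on either arm and the rest of the hairpin. The arms were added, and hairpins of the same mature miRNA were summed, since their shared reads were spread evenly (median difference 0.269% between copies), which gave 277 miRNAs, 263 of them with mature counts. Related miRNAs may share reads. Of the 277, 276 matched a name in the RefSeq table of the assembly UU_Cfam_GSD_1.0, which was used for neighbors within 10 kb and host genes. No sequence or coordinate was used here.

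MiRNAs with at least 10 counts over 15 libraries (250) were tested by quasi-likelihood in edgeR 4.0.16 (R 4.3.3) with TMM and 3 group means, adjusted by Benjamini-Hochberg with a threshold of 0.05. Dividing the absolute log2 fold change by the root of its F statistic gave the SE. TMM factors were 0.78 to 1.62 in nodular hyperplasia, against 0.49 to 1.05 in normal spleen, so scaled CPM can pass 1000000. Shares were compared by exact permutation over 252 orderings. Alternatives were other scalings, DESeq2 1.42.0, limma 3.58.1 voom, other filters and reads, a replicate block, the 10 libraries alone and leaving out each library. The fit of 10 libraries with library totals, that fit without each library, and the reads outside the mature sequence were added after seeing the data. The edgeR step was tested on simulated data. Tables and figures were made in Python 3.11.15 with pandas 2.3.3, numpy 2.4.6, matplotlib 3.10.9 and scipy 1.17.1.

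The miRNAs, the 31 lists and the comparison were chosen with earlier results of these data known. All called miRNAs are named, with all values for the 12 largest rises and falls that averaged 10 CPM or more in either group, besides the 5 most abundant of each group and examples of lists. No library repeated another of its group (in all 20 pairs chi-square was at least 746 times its degrees of freedom).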

Additional observations from a re-analysis of the deposited data

Results flagged for a closer look

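In groups of 5, a sample was singled out when its gap to the nearest other sample took more than 0.71 of the group's range, which chance gives in about 1 in 20 groups, and 8 of the 104 groups looked at held such a sample. In nodular hyperplasia replicate 2, mir-10a was low at 4329 CPM (others 11607 to 13235) and mir-31 high at 196 CPM (others 46.1 to 68.0). Mir-133b was high in nodular hyperplasia replicate 1, at 6.94 CPM (others 0.291 to 1.57), mir-21 in replicate 4, at 410131 CPM (others 132343 to 206570), and mir-126 in replicate 3, at 2536 CPM (others 824 to 1289). Among normal spleens, mir-28 was high in replicate 1, at 5867 CPM (others 1793 to 2718), and mir-31 in replicate 5, at 20.4 CPM (others 7.59 to 11.2). Mir-376b in normal spleen replicate 5, at 0.217 CPM, was a single count where the others had 0.

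For a pair of miRNAs with no mature counts, reads elsewhere on the hairpin stood above every normal spleen in some nodules. Mir-300, of the Dlk1-Dio3 cluster, had 59, 69 and 267 such reads in nodular hyperplasia replicates 1, 2 and 5, the nodules in which the rest of that cluster was high, against 12 to 46 in normal spleen, and 1 and 6 in nodular hyperplasia replicates 3 and 4. Mir-207 had 45 in nodular hyperplasia replicate 4 and 0 to 6 in the other nodules, against 0 to 3 in normal spleen.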

How the results depend on the processing

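The count of 31 called miRNAs stayed within 1.5 times under other composition factors, voom, other filters, all hairpin reads and exact reads. It was 51 with library totals, 16 with unscaled counts, 52 with DESeq2, 56 with the 10 libraries only, 69 with those 10 and library totals, and 15 from reads outside the mature sequence. Without 1 library at a time it was 4 to 46, and 30 to 77 in the fit of 10 libraries (58 without nodular hyperplasia replicate 4 and 47 without normal spleen replicate 5). Calls that were higher made up 45.2% of all calls with TMM, 88.2% with library totals, 68.8% with unscaled counts, 57.7% with totals that leave out mir-143 and 51.9% with DESeq2. Same-numbered samples come from different dogs and did not deviate together (correlations -0.33 to 0.24), so the numbers do not pair them, and with a replicate block 27 were called, 26 of them among the 31. The share of reads outside the mature sequence differed by -1.58 points without mir-143, and by 0.41 to 1.66 points without 1 library. The exact share differed by -0.24 points, and by -1.09 to 0.86 without 1 library. The mir-143 share differed by -27.6 to -23.3 points without 1 library. Signs turned for mir-1836 (1.62 from exact reads), mir-320 (1.44 from outside reads), mir-27a (-0.084 from outside reads), mir-23a (0.23 with library totals in both fits, 0.82 from exact reads) and mir-148a (-0.019 with upper quartile factors, -0.27 to 0.41 without 1 library, and -0.31 to 0.41 in the fit of 10, with -0.011, -0.094 and -0.094 without nodular hyperplasia replicate 1 and normal spleen replicates 3 and 5). The cause of these shifts was not tested. With 5 spleens a group, miRNAs under about 10 CPM rested on few counts.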

Other observations

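The fit of 10 libraries called 25 miRNAs that the fit of 15 did not, with adjusted p = 0.00415 to 0.0469 there against 0.0576 to 0.253 in the fit of 15. Of these, 16 were higher in nodular hyperplasia and 9 lower. The pair mir-221 and mir-222, which restrain KIT and inhibitors of the cell cycle, was among the higher ones. Mir-221 had 1051, 1660.4, 873, 1762 and 759 CPM in nodular hyperplasia, against 361, 414, 659, 664 and 882 CPM in normal spleen, with log2 fold changes of 1.03 (adjusted p = 0.0924) in the fit of 15 and 1.05 (adjusted p = 0.0358) in the fit of 10. Mir-222 had 973, 826, 224, 1559.6 and 384 CPM in nodular hyperplasia, against 171, 171, 227, 273 and 296 CPM in normal spleen, with 1.80 (adjusted p = 0.0718) and 1.82 (adjusted p = 0.0164). In both miRNAs the groups overlapped. Mir-181b, neighbor of mir-181a, was among the lower ones, at -0.74 (adjusted p = 0.0719) in the fit of 15 and -0.74 (adjusted p = 0.0358) in the fit of 10, and did not overlap. Mir-9 was lower as well, at -1.38 (adjusted p = 0.0701) and -1.39 (adjusted p = 0.0315).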
